A study of Homo sapiens with 4 samples.

Results

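The 39 protein-coding HOX genes were examined in A549 cells, an established human lung adenocarcinoma line, after a CRISPR guide against UHRF1 had been introduced. They were chosen as every row of the deposited count table, of 58735 genes in all, whose GENCODE 29 symbol was HOXA, HOXB, HOXC or HOXD followed only by a number and whose type was protein coding. The HOXA cluster held 11 of them, HOXB 10, HOXC 9 and HOXD 9. RNA-seq read counts were available for 4 libraries. The 2 control libraries came from A549 cells carrying a non-targeting guide, and the 2 UHRF1 KO libraries from A549 cells carrying a guide against UHRF1. All 4 shared lentiCRISPRv2-hygro infection and hygromycin selection, so a cell without virus was not part of the comparison. The sources used here do not say if a group was a pool or 1 clone, nor when after infection RNA was taken.

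HOX genes encode homeodomain transcription factors that lay down position along the body axis of the embryo. In each cluster the genes lie in the order of their paralog numbers, and low numbers act towards the head and high numbers towards the tail. In adult cells Polycomb proteins hold much of each cluster silent, and many HOX promoters lie in CpG islands. UHRF1 binds hemimethylated DNA at replication and brings in the maintenance methyltransferase DNMT1. DNA methylation itself was not measured here, so the levels of HOX transcripts could be compared with promoter sequence but not with methylation.

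In GRCh38 the HOXA genes spanned 107.1 kb of chromosome 7 (minus strand) and the HOXB genes 200.7 kb of chromosome 17 (48528526 to 48729178, minus strand). The HOXC genes spanned 117.3 kb of chromosome 12 (53938765 to 54056030, plus strand) and the HOXD genes 98.0 kb of chromosome 2 (176092891 to 176190907, plus strand). RefSeq promoter windows on GRCh38.p14, from 250 bases before to 50 after a start site, were matched by symbol for 20 of the 39 genes. The 5 windows below, all from the HOXA cluster and printed 5′ to 3′ on the gene's minus strand, are shown because these neighbours went different ways in UHRF1 KO: HOXA9 and HOXA11 were called higher, HOXA7 and HOXA13 lower, and HOXA10 was not called. Capitals mark each CG dinucleotide, the site at which UHRF1 reads methylation.
HOXA7: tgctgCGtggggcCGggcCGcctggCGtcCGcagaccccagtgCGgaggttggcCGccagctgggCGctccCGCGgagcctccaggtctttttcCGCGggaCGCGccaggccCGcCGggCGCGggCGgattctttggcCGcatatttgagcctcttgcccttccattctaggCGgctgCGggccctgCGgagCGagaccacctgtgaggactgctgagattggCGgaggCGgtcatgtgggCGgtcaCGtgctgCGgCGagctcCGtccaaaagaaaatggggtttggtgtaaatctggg
HOXA9: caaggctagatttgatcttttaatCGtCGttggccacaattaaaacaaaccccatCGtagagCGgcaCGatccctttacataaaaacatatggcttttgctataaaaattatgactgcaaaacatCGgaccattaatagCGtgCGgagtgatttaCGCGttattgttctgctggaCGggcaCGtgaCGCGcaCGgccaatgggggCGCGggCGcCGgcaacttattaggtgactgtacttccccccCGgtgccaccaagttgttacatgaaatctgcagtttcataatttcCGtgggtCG
HOXA10: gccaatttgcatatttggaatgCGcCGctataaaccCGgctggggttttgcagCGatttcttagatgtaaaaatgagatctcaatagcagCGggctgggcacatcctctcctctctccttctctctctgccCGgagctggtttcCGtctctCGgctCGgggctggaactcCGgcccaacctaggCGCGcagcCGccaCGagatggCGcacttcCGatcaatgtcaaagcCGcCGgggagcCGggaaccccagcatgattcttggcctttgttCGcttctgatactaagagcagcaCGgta
HOXA11: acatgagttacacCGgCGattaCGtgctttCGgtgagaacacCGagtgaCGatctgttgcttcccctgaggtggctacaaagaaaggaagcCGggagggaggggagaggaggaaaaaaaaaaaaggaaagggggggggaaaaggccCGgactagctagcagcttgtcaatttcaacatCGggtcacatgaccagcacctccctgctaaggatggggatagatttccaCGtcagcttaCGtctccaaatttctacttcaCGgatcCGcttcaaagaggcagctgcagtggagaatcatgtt
HOXA13: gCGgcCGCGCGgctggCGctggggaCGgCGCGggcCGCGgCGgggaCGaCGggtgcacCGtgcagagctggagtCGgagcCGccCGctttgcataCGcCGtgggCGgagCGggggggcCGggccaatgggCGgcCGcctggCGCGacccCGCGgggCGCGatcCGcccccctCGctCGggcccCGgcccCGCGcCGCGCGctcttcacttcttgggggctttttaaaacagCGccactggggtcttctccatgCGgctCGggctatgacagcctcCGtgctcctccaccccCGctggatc
These windows hold 31 (HOXA7), 22 (HOXA9), 21 (HOXA10), 13 (HOXA11) and 44 (HOXA13) CG dinucleotides. The HOXA10 window is the first of its 2 listed windows. The windows lie at chr7:27156626-27156925 (HOXA7), chr7:27165488-27165787 (HOXA9), chr7:27179812-27180111 (HOXA10), chr7:27185183-27185482 (HOXA11) and chr7:27200042-27200341 (HOXA13).

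Total counts ran from 18604598 to 23977168 per library. The targeted gene UHRF1 (ENSG00000276043) was at 97.6 and 98.9 CPM (counts scaled to a common library size, with TMM factors) in control and at 39.1 and 40.2 in UHRF1 KO. The transcript was thus 2.47-fold lower (edgeR adjusted p = 3.92e-20), and UHRF1 protein was not measured. Of 6 epithelial markers, KRT8, KRT18, KRT7, KRT19 and CDH1 were abundant, with KRT8 at 2676 ± 108 CPM in control (SD, n = 2), while EPCAM was at only 2.21 ± 0.83 CPM. EPCAM was called higher in UHRF1 KO and the other 5 lower. Markers of other cell types summed to 15.5 and 15.6 CPM in the controls and to 68.2 and 74.6 in UHRF1 KO. Of these 17 markers 9 were tested, 8 were called higher and 0 lower, with 8 at an unadjusted edgeR p under 0.05, against 32.0% higher and 30.1% lower over all genes tested. For 4 of the 8, PECAM1, COL1A2, PDGFRB and ALB, a rise was the only call open, since they passed the filter on low counts through UHRF1 KO alone. Endothelial PECAM1 made up 29.3 and 30.5 CPM of the UHRF1 KO sums. Lymphocyte CD3E was at 0 counts in all 4 libraries, and the part of these genes in the HOX results was not tested. The labels do not say whether replicates were grown as separate cultures. The p-values therefore rest only on the spread between the 4 libraries, and that spread may be technical.

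A549 cells with the non-targeting guide expressed HOX genes of all 4 clusters, and HOXB7 stood first. In control its level per length was 18 ± 1.0 CPM per kilobase of exon (SD, n = 2), and HOXB6, HOXB9, HOXC9 and HOXC8 followed at 4.10, 3.38, 3.19 and 2.63 CPM per kilobase. HOXB9 and HOXC9 did not differ beyond their spread, with SDs of 0.47 and 0.35 CPM per kilobase. The same 5 genes held the top 5 places in UHRF1 KO, with HOXB7 at 12.2 ± 0.35 CPM per kilobase. At the other end HOXD12 had 0 counts in every library, where 3 counts would be 0.161 CPM in the smallest library. HOXB1, HOXC12, HOXD1, HOXD3 and HOXD4 had at most 3 counts in any library.

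The order of levels was largely kept. Across the 39 genes the Spearman correlation of mean CPM per kilobase between control and UHRF1 KO was 0.92, against 0.97 between the control libraries and 0.98 between the UHRF1 KO libraries. These values describe genes that share libraries and counting, and genes are not independent replicates. HOXB genes held 52.4% and 53.5% of all HOX counts in control and 53.9% and 52.4% in UHRF1 KO. The HOXD cluster was lowest, with 5.79% and 5.36% in control and 6.74% and 6.91% in UHRF1 KO. Within the HOXD cluster HOXD8 stood highest, at 2.01 ± 0.32 CPM per kilobase in control, and HOXD10 followed at 0.66. HOXD9, HOXD11 and HOXD13 were at 0.24, 0.21 and 0.14, and HOXD1, HOXD3, HOXD4 and HOXD12 were at or near 0.

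**Figure D1:**
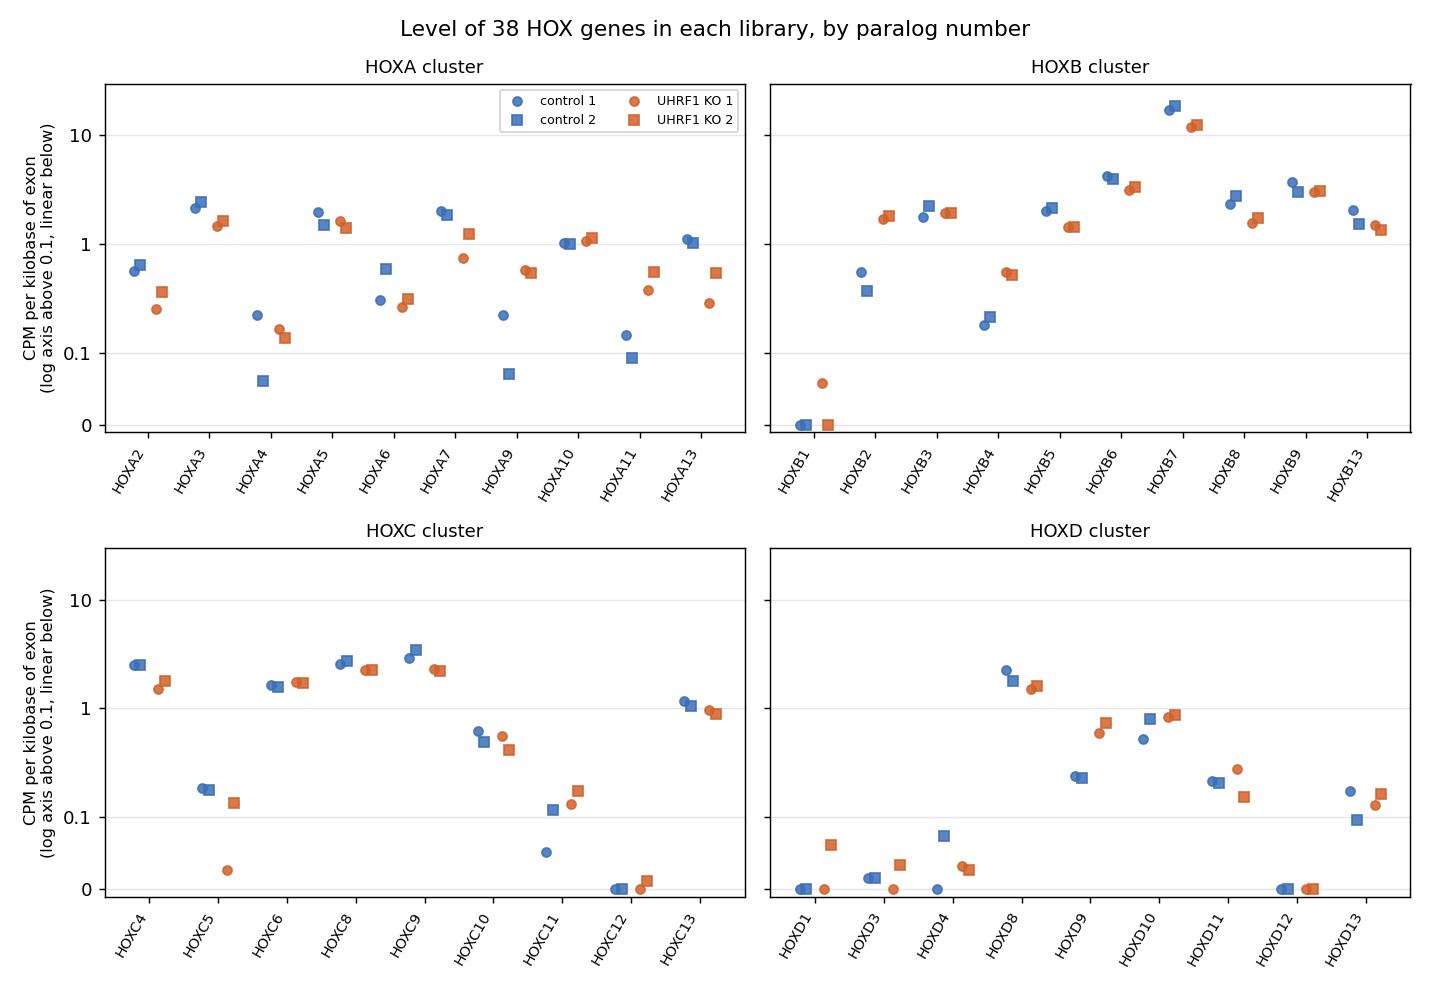
Level of 38 of the 39 HOX genes in CPM per kilobase of exon (log axis above 0.1, linear below), 1 panel per cluster in order of paralog number, with control libraries in blue, UHRF1 KO libraries in orange, circles for replicate 1 and squares for replicate 2. HOXB7 is the highest gene in every library and HOXD12 is at 0 in all 4.

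Exons of 25 of the 39 genes overlapped those of another gene, 19 of them on the opposite strand, and 5 had under 50% of their exon bases to themselves. The sources used here do not say how the authors used strand or treated reads that fit 2 genes. Levels of HOXC4, HOXC5 and HOXC6, of HOXB3 and HOXB4, of HOXD3 and HOXD4, and of genes with an antisense partner are therefore uncertain. Per kilobase of unshared exon, HOXA7 would be at 5.14 CPM in control in place of 1.93.

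The comparison of UHRF1 KO with control asked which of these genes change when UHRF1 is targeted. The filter on low counts was passed by 27 genes, with 12 left untested at no more than 14 counts in any library. Of the 27, 5 were higher, 10 were lower and 12 were not called (edgeR quasi-likelihood test, adjusted p under 0.05 over all 17030 genes tested). Over all genes tested 62.0% were called, 32.0% higher and 30.1% lower. Among protein-coding genes 66.6% were called, 32.0% higher and 34.6% lower. Among genes in the same range of mean level, 0.68 to 23.1 CPM, 53.5% were called, 35.2% higher and 18.3% lower. The HOX share of 15 in 27 thus lies near the background. The median log2 fold change was -0.22 over the 27 genes and 0.02 over all genes tested.

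All 5 genes that rose, HOXA9, HOXA11, HOXB2, HOXB4 and HOXD9, did so by at least 2-fold, where 15.4% of all genes tested were called at least 2-fold higher (13.3% of protein-coding genes). The 5 had 4 to 23 counts per control library and SEs of 0.27 to 0.51. For 3 of them UHRF1 KO was the only group with both libraries over the filter. The part of the filter and of the precision in the size of these rises was not tested. HOXA13 alone of the 10 that fell was at least 2-fold lower, where 2.54% of all genes tested and 2.14% of protein-coding genes were. After a correction for GC content and gene length that also recentred each library, the same 5 genes rose and 17 fell, and that setting moved the median of all genes tested from 0.02 to -0.23. DESeq2 called 3 higher and 4 lower. Without UHRF1 KO replicate 2, 3 were called higher and 7 lower.

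**Figure D2:**
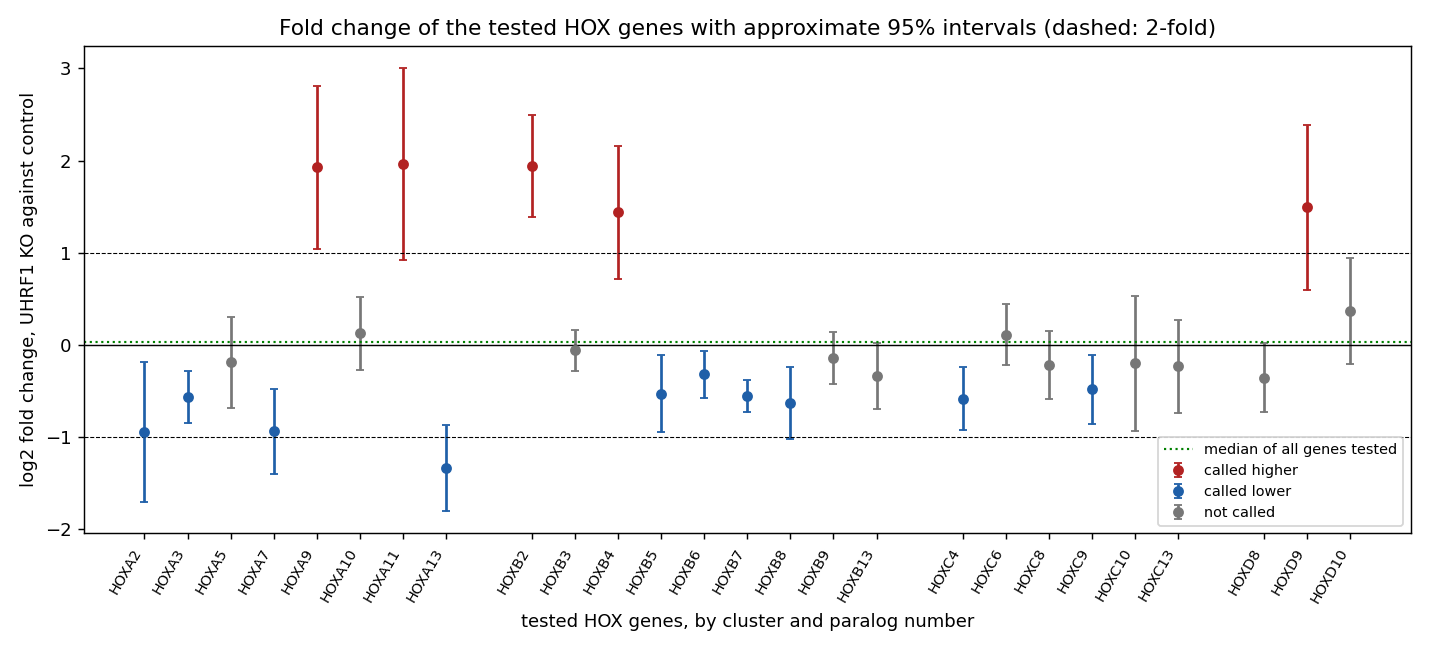
Log2 fold change of 26 of the 27 tested HOX genes (UHRF1 KO against control), by cluster and paralog number, with approximate 95% intervals from the edgeR fit. Red points were called higher, blue points lower and grey points not called. The 5 red points lie above 1, and the intervals of all 11 grey points lie between -1 and 1.

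HOXB2, a gene of hindbrain patterning, had the smallest adjusted p of the rises. It was at 1.29 and 0.86 CPM in control and at 4.0 and 4.26 CPM in UHRF1 KO. The groups did not overlap, as for 23 of the 27 genes and for 80.0% of all genes tested. HOXB2 was 3.84-fold higher (log2 fold change 1.94, SE 0.27, edgeR adjusted p = 1.98e-07), and it was called in all 4 fits that left out 1 library. HOXB4, known for its role in blood stem cells, rose from 0.67 and 0.81 CPM to 2.07 and 1.97 CPM (log2 fold change 1.44, SE 0.35, edgeR adjusted p = 7.37e-04). Between HOXB2 and HOXB4 lies HOXB3, which did not pass the test. Its values were 13.2 and 16.9 CPM in control and 14.3 and 14.6 CPM in UHRF1 KO, so that the UHRF1 KO libraries fell between the controls.

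HOXA9, whose activation is a mark of some acute leukaemias, was at 0.67 and 0.22 CPM in control and at 1.74 and 1.65 CPM in UHRF1 KO. Its log2 fold change was 1.93 (SE 0.43, with an edgeR adjusted p = 2.73e-04). The value rests on 12 and 4 control counts, and was 1.30 without control replicate 2 and 2.92 without control replicate 1. HOXA11, a limb and uterus patterning gene, was at 0.34 and 0.22 CPM in control and at 0.87 and 1.29 CPM in UHRF1 KO (log2 fold change 1.96, SE 0.51, edgeR adjusted p = 0.00126). Its counts were 6 and 4 against 18 and 32, and without UHRF1 KO replicate 2 its adjusted p was 0.0654. HOXA10, which lies between them and acts in the same tissues as HOXA11, did not pass the test, at 3.81 and 3.72 CPM in control and 3.95 and 4.22 CPM in UHRF1 KO. Its log2 fold change of 0.12 had an approximate 95% interval from -0.28 to 0.52.

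HOXD9, a paralog of HOXA9, was at 0.45 and 0.43 CPM in control and at 1.11 and 1.37 CPM in UHRF1 KO (log2 fold change 1.49, SE 0.44, edgeR adjusted p = 0.0039). Without UHRF1 KO replicate 2 its adjusted p was 0.0797. The other 2 genes of paralog number 9 did not rise: HOXB9 was not called, at 8.73 ± 1.22 CPM in control and 7.86 ± 0.21 in UHRF1 KO, and HOXC9 fell. For HOXA9, HOXA11 and HOXD9, UHRF1 KO was the only group with both libraries over the filter on low counts, so a fall was hardly open to them. In HOXA9 control replicate 1 was over it as well. HOXB2 and HOXB4 passed it in both groups.

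HOXA13, the most 5′ gene of its cluster and a gene of the distal limb and hindgut, had the largest fall among the HOX genes. It was at 5.72 and 5.23 CPM in control and at 1.45 and 2.78 CPM in UHRF1 KO. Its log2 fold change was -1.34 (SE 0.23, edgeR adjusted p = 6.77e-06), or -1.92 with UHRF1 KO replicate 2 left out and -0.98 with replicate 1 left out. HOXA7 also differed between the UHRF1 KO libraries, at 1.78 and 2.98 CPM against 4.82 and 4.47 in control (log2 fold change -0.94, SE 0.23, edgeR adjusted p = 5.81e-04). In both genes UHRF1 KO replicate 1 was the lower library, and both stayed called with either left out.

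HOXB7, the most abundant member and often raised in carcinomas, had the most precise fall. It went from 26.4 and 28.6 CPM to 18.3 and 19 CPM (log2 fold change -0.56, SE 0.086, edgeR adjusted p = 1.04e-06). Its neighbours HOXB5, HOXB6 and HOXB8 also fell, by 0.53, 0.32 and 0.64 on the log2 scale. HOXB5, which acts in the branching of the lung, was at 4.09 and 4.42 CPM in control and at 2.94 CPM in both UHRF1 KO libraries (edgeR adjusted p = 0.0248). HOXB8 was at 4.82 and 5.66 CPM against 3.18 and 3.54 (edgeR adjusted p = 0.00451), and HOXB6 at 10.9 and 10.4 against 8.25 and 8.77 (edgeR adjusted p = 0.0267). From HOXB5 to HOXB8 every gene of the cluster was thus lower in the edgeR fit, while HOXB9 and HOXB13 were not called. This run depended on the setting. DESeq2 called HOXB7 lower but not HOXB5, HOXB6 or HOXB8, while limma-voom kept each of these calls. With trends in GC content and gene length removed, HOXB9 and HOXB13 were called lower as well.

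HOXA3, a gene of the pharyngeal arches, fell from 9.31 and 10.5 CPM to 6.27 and 7.08 CPM (log2 fold change -0.57, SE 0.14, edgeR adjusted p = 6.85e-04). HOXA2, which patterns the arch next to it, was at 1.40 and 1.56 CPM against 0.63 and 0.89 (log2 fold change -0.95, SE 0.37, edgeR adjusted p = 0.0280). HOXC4 fell from 6.84 and 6.79 CPM to 4.15 and 4.87 CPM (log2 fold change -0.59, edgeR adjusted p = 0.00289). HOXC9, a determinant of thoracic motor neurons, fell from 4.94 and 5.77 CPM to 3.91 and 3.74 CPM (log2 fold change -0.49, edgeR adjusted p = 0.0219). The calls of HOXA2, HOXB5, HOXB6 and HOXC9 were the least secure, since each had an edgeR adjusted p above 0.01 and each was lost when 1 or more of the 4 libraries was left out. Their adjusted p then reached 0.203 for HOXA2, 0.0937 for HOXB5, 0.115 for HOXB6 and 0.151 for HOXC9.

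**Figure D3:**
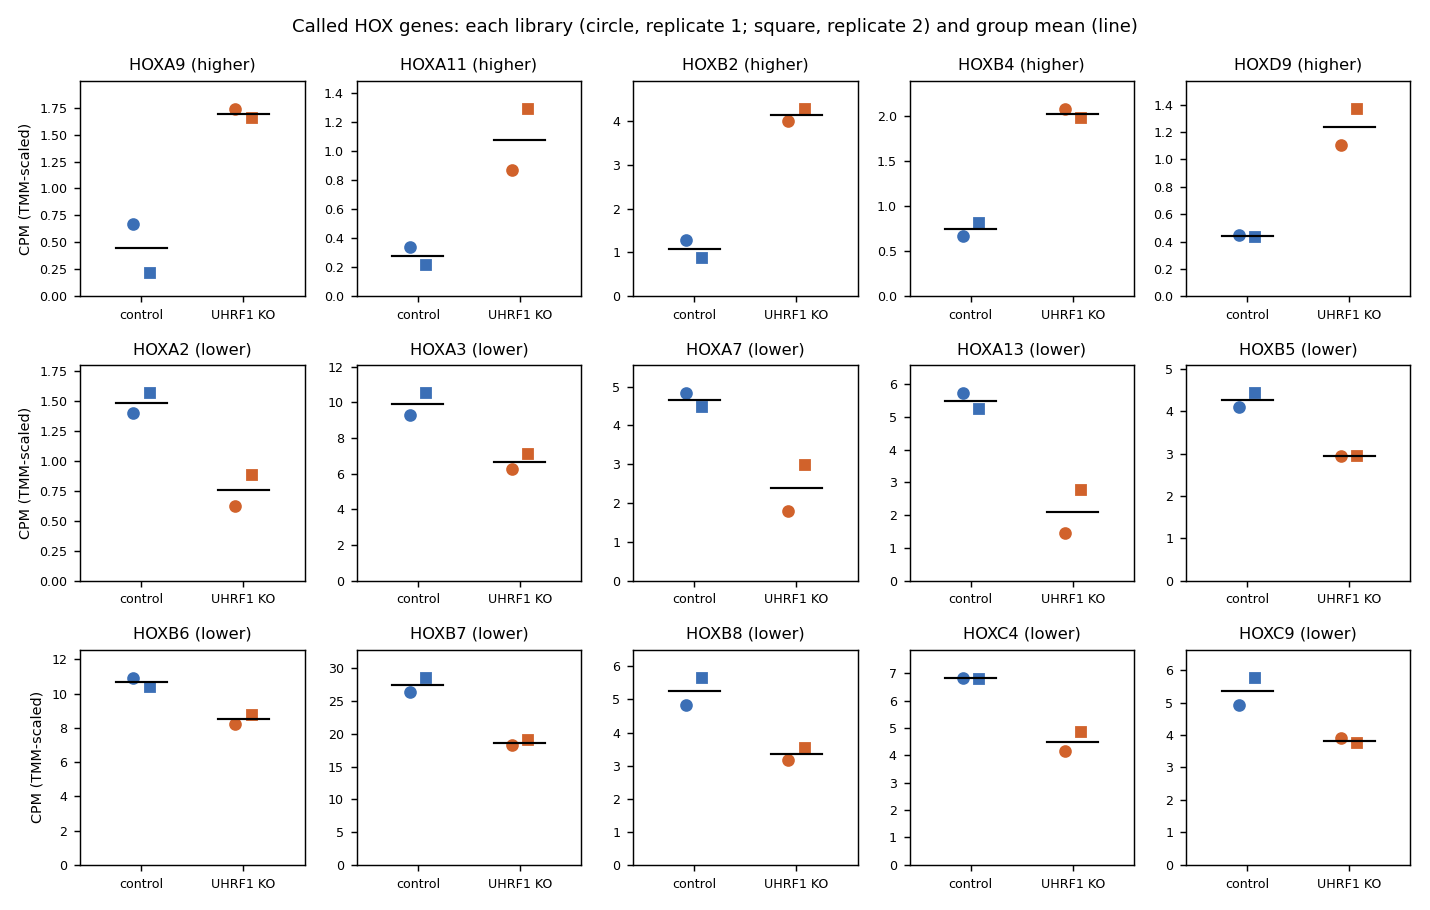
TMM-scaled CPM of the 15 called HOX genes in each library, with circles for replicate 1, squares for replicate 2, a line at the mean of each group and each axis starting at 0. The 5 genes called higher lie below 1.30 CPM in both controls, and HOXA7 and HOXA13 show the widest gap between the UHRF1 KO libraries among the genes called lower.

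Among the 12 genes tested but not called were HOXA5, HOXA10, HOXB3, HOXB9, HOXB13, HOXC6, HOXC8, HOXC10, HOXC13, HOXD8 and HOXD10. The log2 fold changes of the 12 ran from -0.36 (HOXD8) to 0.37 (HOXD10). For each of the 12 the approximate 95% interval lay between a 2-fold fall and a 2-fold rise, so changes beyond 2-fold in either direction fall outside those intervals. Over all genes tested 66.3% had such an interval, as did 18 of the 27 HOX genes. HOXA5, a regulator of lung development, was at 3.36 and 2.59 CPM in control and at 2.80 and 2.41 CPM in UHRF1 KO, and the groups overlapped. HOXC6 was at 5.83 and 5.61 CPM against 6.22 and 6.11. HOXB13, a prostate and tail-bud gene, was at 7.18 and 5.28 CPM against 5.16 and 4.71, and HOXD8 at 5.89 and 4.69 against 3.95 and 4.26. Both were called lower without control replicate 2 (edgeR adjusted p = 0.0118 and 0.0304).

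HOXC8 was at 4.82 and 5.12 CPM in control and at 4.29 and 4.22 in UHRF1 KO, and HOXC13, a hair follicle gene, at 2.80 and 2.53 against 2.36 and 2.17. HOXC10 was at 1.46 and 1.13 CPM in control and 1.30 and 0.97 in UHRF1 KO. HOXD10, a limb gene, was at 1.40 and 2.16 CPM against 2.27 and 2.33. In HOXC10 the groups overlapped, and in the other 3 genes the gap between groups was too small to pass the test. The 12 untested genes were HOXA4, HOXA6, HOXB1, HOXC5, HOXC11, HOXC12, HOXD1, HOXD3, HOXD4, HOXD11, HOXD12 and HOXD13. None of them reached 1 CPM in the mean of either group. With no filter, 38 genes were tested and the calls were the same 15.

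Of the 10 tested genes with a mean under 3 CPM over the 4 libraries, 5 rose and 1 fell, and of the 17 at 3 CPM or more, 0 rose and 9 fell. Without the 3 genes that had both libraries over the filter only in UHRF1 KO, 2 of 7 rose and 1 fell under 3 CPM. In DESeq2 and limma-voom none of those 17 was called higher, and at an unadjusted edgeR p under 0.05 none was either. Over all genes tested, 39.5% of those under 3 CPM were higher and 6.85% lower, against 29.0% higher and 39.2% lower at 3 CPM or more. The boundary of 3 CPM was chosen after the values were seen, and the filter in part sets the share of rises among low genes, so these counts are a description.

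By cluster, HOXA had 2 higher and 4 lower of 9 tested, HOXB 2 and 4 of 9, HOXC 0 and 2 of 6, and HOXD 1 and 0 of 3. The shares over all genes tested were 32.0% higher and 30.1% lower, and 34.6% of protein-coding genes were lower. With so few genes per cluster these counts do not set the clusters apart. With recentring the lower counts were 7 in HOXB, 4 in HOXC and 1 in HOXD, and with DESeq2 they were 1 in HOXB and 0 in HOXC. Summed over members, HOXA went from 35.2 and 34.3 CPM in control to 25.4 and 29.6 in UHRF1 KO. HOXB went from 78.2 and 80.7 CPM to 66.0 and 67.8, and HOXC from 27.2 and 27.7 CPM to 22.7 and 22.9. In these 3 clusters both UHRF1 KO libraries lay below both controls, with ratios of 0.79, 0.84 and 0.83. HOXD was at 8.64 and 8.09 CPM in control and at 8.25 and 8.93 in UHRF1 KO, and its groups overlapped. Without TMM scaling HOXD was at 8.28 and 7.80 CPM in control and at 8.54 and 9.26 in UHRF1 KO, with no overlap. With 2 libraries against 2, an exact two-sided permutation test over libraries cannot give a p below 0.333, so no difference between clusters was tested.

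By position, genes of paralog numbers 1 to 3 were called higher in 1 and lower in 2 of 5 cases, numbers 4 to 8 in 1 and 6 of 11, and numbers 9 to 13 in 3 and 2 of 11. All genes tested were 32.0% higher and 30.1% lower. The parts differed in level, with 3 of 5, 9 of 11 and 5 of 11 tested genes at 3 CPM or more. At that level 29.0% of all genes tested were higher and 39.2% lower, against 39.5% and 6.85% below it. The part of level in the counts by position was not tested. The median log2 fold change was -0.06, -0.36 and -0.15 in these 3 parts. The summed level of numbers 4 to 8 went from 79.6 and 80.4 CPM to 58.6 and 62.0, a ratio of 0.75, and without HOXB7 the ratio was 0.79. Numbers 1 to 3 summed to 30.2 and 34.8 CPM in control and 30.6 and 32.7 in UHRF1 KO, and numbers 9 to 13 to 39.4 and 35.6 against 33.1 and 34.5. Without TMM scaling numbers 9 to 13 were at 37.73 and 34.33 CPM in control and at 34.32 and 35.78 in UHRF1 KO, and the groups overlapped. The share of numbers 4 to 8 among all HOX counts was 53.4% and 53.3% in control and 47.9% and 48.0% in UHRF1 KO. Within HOXA the calls from number 7 to 13 were lower, higher, not called, higher and lower, while within HOXB the 4 genes from number 5 to 8 were all lower. Of these calls limma-voom kept all, while DESeq2 lost those of HOXA11, HOXB5, HOXB6 and HOXB8.

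**Figure D4:**
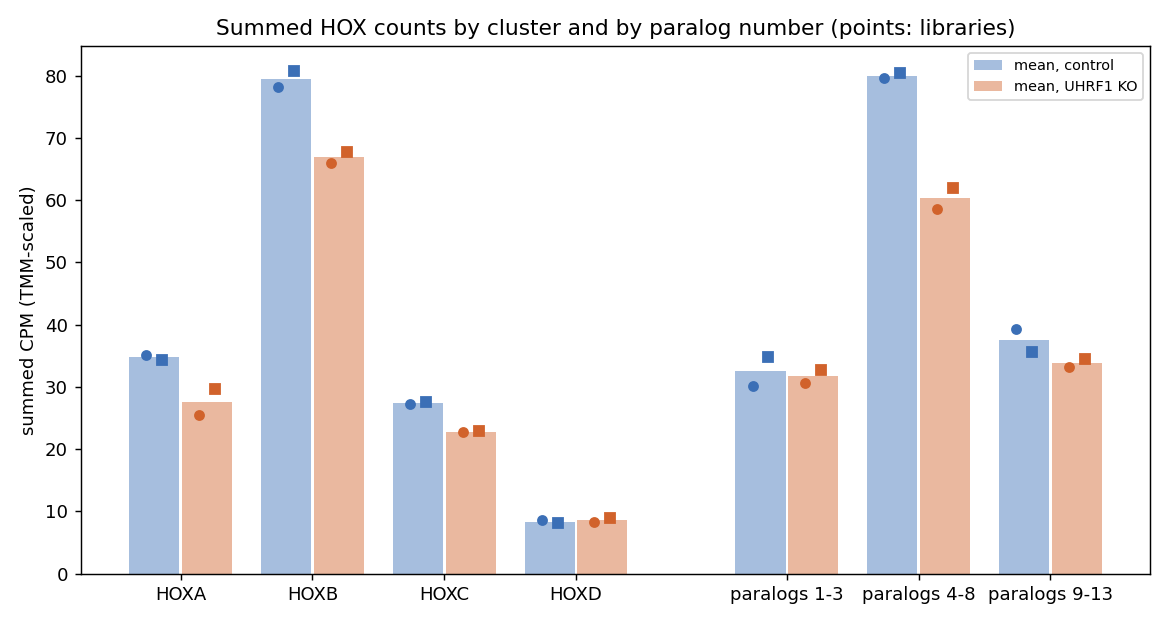
Summed TMM-scaled CPM of the HOX genes by cluster (left) and by paralog number (right), with bars for group means starting at 0, circles for replicate 1 and squares for replicate 2. HOXA, HOXB, HOXC, paralogs 4 to 8 and paralogs 9 to 13 are lower in both UHRF1 KO libraries than in both controls, and HOXD and paralogs 1 to 3 overlap. Without TMM scaling paralogs 9 to 13 overlap and HOXD does not.

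Promoter sequence was described for the 20 genes with a window, taking the first listed where a gene had several. HOXC4 and HOXC5 share 1 window, and HOXB1 was the only HOXB gene with one. Of the 20 genes 2 were called higher, 5 lower and 3 not called, and 10 were untested, so HOXB2, HOXB4, HOXD9 and HOXB5 to HOXB8 are not covered. The median was 22.5 CG dinucleotides per 300-base window, against 14 over all 35116 windows of the table and 26 over the 11342 genes that were tested and had one. The ratio of observed to expected CG was over 0.6 in 18 of the 20 (90.0%), against 79.4% of tested genes and 48.8% of all windows. HOXB1 and HOXD4, with at most 3 counts in any library, were the 2 below it. Yet HOXD1, HOXD3 and HOXD12, which also had at most 3 counts, had ratios of 0.87, 0.99 and 0.87. The HOXA windows printed above all lay over it, with HOXA9 at 1.27, HOXA13 at 1.01, HOXA7 at 0.91, HOXA10 at 0.88 and HOXA11 at 0.67. Genes of each direction thus had windows with a ratio over 0.6. In number of CG dinucleotides the median was 17.5 for the 2 genes called higher and 15 for the 5 called lower, both below the 26 of tested genes. Over all genes with a window, 68.6% of those called higher had a ratio over 0.6, against 87.8% of those called lower and 80.8% of those not called. The AGGTCA motif bound by nuclear receptors was searched on both strands. It was in 0 of the 20 windows, in 9.82% of those of tested genes and in 13.8% of all windows. This says only that these letters are not in the 20 windows.

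Noncoding RNAs of the clusters were tested in 7 of 24 cases, and 2 rose and 0 fell, with 2 at an unadjusted edgeR p under 0.05. Over all genes tested 32.0% were higher and 30.1% lower, so 2 of 7 lies near the background. DESeq2 called 1 higher and 0 lower, and limma-voom 2 and 0. HOXB-AS1, which is antisense to HOXB2 and overlaps its exons, was at 0.50 and 0.27 CPM in control and at 1.21 and 1.49 in UHRF1 KO (log2 fold change 1.80, SE 0.45, edgeR adjusted p = 8.92e-04). Only the UHRF1 KO libraries met the filter for HOXB-AS1, so a rise was the only call open to it. Of the exon bases of HOXB2, 96.3% were not shared with any gene. HAGLR, a long noncoding RNA antisense to HOXD1 and HOXD3, rose from 1.12 and 1.19 CPM to 2.75 and 2.86 CPM (log2 fold change 1.28, SE 0.29, edgeR adjusted p = 2.65e-04), while HOXD1 and HOXD3 had at most 3 counts. HOTAIRM1 was at 2.08 and 2.26 CPM against 2.80 and 2.74 (edgeR adjusted p = 0.229). HOXA-AS2, HOXB-AS3 and HOXB-AS4 had log2 fold changes of -0.44, -0.38 and -0.50 and did not pass the test. HOTAIR had at most 6 counts per library, and the 6 microRNA genes of the clusters at most 5, from a kit for mRNA.

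Of 13 genes that flank the clusters 8 were tested, 3 rose and 2 fell, near the 62.0% called over all genes tested. DESeq2 called 1 higher and 1 lower. CBX5, which encodes the heterochromatin protein HP1 alpha and lies beside HOXC, fell from 339.6 and 349.1 CPM to 141.4 and 135.0 CPM (log2 fold change -1.32, SE 0.040, edgeR adjusted p = 3.12e-24). CALCOCO1, on the other side of HOXC, rose 1.85-fold, from 25 and 27.1 CPM to 50.9 and 45.7. HIBADH (log2 fold change 0.19) and SMUG1 (0.28) rose as well, and LNPK (-0.20) fell. SKAP2 and MTX2, which border HOXA and HOXD, were not called, at log2 fold changes of -0.05 and -0.03. EVX1 had 0 counts in every library.

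Of 9 PBX, MEIS and PKNOX genes, whose proteins bind DNA together with HOX proteins, 8 were tested, 2 rose and 1 fell, against 32.0% higher and 30.1% lower over all genes tested. PBX4 rose 6.52-fold, from 1.23 and 1.29 CPM to 7.96 and 8.57 (log2 fold change 2.70, SE 0.21, edgeR adjusted p = 5.66e-13), and MEIS3 rose 2.02-fold, from 22.4 and 24 CPM to 45.7 and 47.9. PBX2 fell by 0.19 on the log2 scale.

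Polycomb and trithorax genes, which hold HOX genes silent or active, went both ways: of 30 tested, 9 rose and 11 fell, with a median of -0.02, which lies near the 32.0% higher and 34.6% lower among protein-coding genes. With the recentred libraries 2 rose and 21 fell, and with DESeq2 4 rose. KDM6B, which removes the Polycomb mark from histone H3, rose 2.95-fold from 24.4 and 23.1 CPM to 68.8 and 71.0, and KMT2B, a histone H3 lysine methyltransferase, rose 1.37-fold. The MLL complex partner PSIP1 fell 1.59-fold and the insulator protein CTCF, which bounds domains in HOX clusters, fell 1.56-fold, from 97.0 and 95.4 CPM to 62.6 and 60.7. The Polycomb methyltransferase EZH2 fell by 0.40 on the log2 scale.

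Retinoic acid induces HOX genes in embryos, and of 18 genes of its pathway 14 were tested, 9 rose and 2 fell, against 32.0% higher and 30.1% lower over all genes tested. For 2 of the 9 only the UHRF1 KO libraries met the filter. ALDH1A1, a retinal dehydrogenase, fell 3.31-fold from 8210 and 8219 CPM to 2486 and 2480. CRABP2, which carries retinoic acid to its receptor, rose 11.8-fold from 1.74 and 2.16 CPM to 23.1 and 23.2. RDH10 and RXRA rose 2.39-fold and 1.70-fold. The 6 CDX and ParaHox genes, relatives of the HOX genes, had at most 8 counts in any library and were not tested.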

How the data were processed

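The authors deposited whole-number read counts per Ensembl gene for the 4 A549 libraries, not normalized. Per the submitters' processing notes FastQC 0.10.1 and build GRCh38 were used. No aligner, counter or strand setting is named in the sources used here. Libraries came from total RNA with a SMARTER mRNA kit, per the labels' protocols. The labels give 1 of the control columns' names to both control libraries, so the number in the title decided which column was which. Symbols, gene types and exon lengths are from GENCODE 29.

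Counts were tested with edgeR 4.0.16 (TMM, filterByExpr, about 0.51 CPM in 2 libraries, glmQLFit with robust estimation, glmQLFTest, two-sided) in R 4.3.3, with Benjamini-Hochberg adjustment over the 17030 genes tested and a threshold of 0.05. SEs were derived from the fold change and the F statistic. Levels are TMM-scaled CPM, with a floor of 3 counts. Total counts were 18604598 and 19222886 in control and 20020366 and 23977168 in UHRF1 KO, so 1 count was worth 0.042 to 0.054 CPM before scaling. Alternatives included DESeq2 1.42.0 and limma-voom (limma 3.58.1), and these 3 tests were also run on simulated data with 200 changed genes. The members of the group and the 6 gene lists (TALE cofactors, cluster noncoding RNAs, flanking genes, Polycomb and trithorax genes, retinoic acid pathway, CDX and ParaHox genes), with the 2 marker lists, were chosen with earlier results of these data known. Named genes are UHRF1, HOX genes reaching 1 CPM in the mean of either group, the called members of a list that rank 1 to 4 by adjusted p, and list members inside a cluster that reach 1 CPM. HOTAIR, SKAP2, MTX2, EVX1, LNPK, EZH2, PECAM1, COL1A2, PDGFRB, ALB and HOX genes under 1 CPM were named after their values were seen. Values of 1 HOX gene are not reported here.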

Additional observations from a re-analysis of the deposited data

How the results depend on the processing

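The calls were repeated under 16 alternative settings. An adjusted p under 0.01 and a change of at least 2-fold were stricter thresholds on the main fit, and the other settings were new fits. The 15 HOX calls were kept with size factors as in DESeq2, with upper-quartile scaling, without a filter, at equal depth, with limma-voom and with trends in GC content and length removed, with or without recentring. Libraries of the same replicate number showed no shared deviation (the correlation of deviations across genes was -0.014), which does not settle whether they were paired. A fit with the replicate block called 5280 genes higher and 4986 lower, and 5 and 10 HOX genes, with no HOX call changed. Counts below are of genes called higher or lower, and where no alternative's construction shows it the cause was not tested. DESeq2 called 3 HOX genes higher and 4 lower (HOXA 1 higher, HOXB 1 lower, HOXC 0 lower, HOXD 0 higher), 0 TALE cofactors lower, 1 cluster noncoding RNA higher, 1 flanking gene higher and 1 lower, and 4 Polycomb and trithorax genes higher. With trends removed, HOXB9, HOXB13 and 1 HOXD gene (HOXD8) were newly called lower. There 1 noncoding RNA and 1 flanking gene were lower, and HOXA10 turned to a log2 fold change of -0.0052. With recentring as well, 3525 genes were higher and 8141 lower, with 17 HOX genes lower (HOXB 7, HOXC 4, HOXD 1). In that fit 3 TALE cofactors, 3 noncoding RNAs and 6 retinoic acid genes were lower, flanking genes were 1 higher and 4 lower, and Polycomb and trithorax genes 2 higher and 21 lower. HOXA10 and HOXC6 turned there to -0.30 and -0.28, while the median of all genes was -0.23. At an adjusted p under 0.01, 6 HOX genes were lower (HOXB 2, HOXC 1), 0 TALE cofactors and 1 flanking gene. At 2-fold or more, 2616 genes were higher and 432 lower, 1 HOX gene was lower (HOXA 1, HOXB 0, HOXC 0), 0 TALE cofactors were lower, flanking genes were 0 higher and 1 lower, Polycomb and trithorax genes 1 higher and 0 lower, and 1 retinoic acid gene was lower. With at least 1 CPM in 2 libraries HOXA11 was not tested and 1 HOXA gene was higher. Leaving out 1 library at a time gave 3 to 5 HOX genes higher and 7 to 9 lower. The ranges were 0 to 1 for HOX cofactors (TALE) called lower, 0 to 1 for HOX cluster noncoding RNAs called lower, 1 to 2 for HOXC called lower, 0 to 1 for HOXD called lower, 1 to 2 for genes flanking the HOX clusters called lower, 2 to 4 for HOXB called lower, 1 to 2 for HOXA called higher and 0 to 1 for HOXD called higher. HOXB3 ranged from -0.24 to 0.10, turning positive without control replicate 2, and HOXC10 from -0.43 to 0.0049, turning positive without UHRF1 KO replicate 2. The log2 ratio of summed HOXD levels, not tested, turned to -0.0081 without control replicate 2 and -0.020 without UHRF1 KO replicate 2. Depth limits the genes under 1 CPM most: the 5 genes called higher had 4 to 23 counts per control library.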
